A study of Mus musculus with 12 samples.

Results

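The MHC class II genes described here are 7 genes of the class II presentation machinery, measured in sorted mouse CD4+ T cells that were deficient or sufficient for the transcription factor Blimp1. They are H2-Aa, H2-Ab1, H2-Eb1, Cd74, H2-DMa, H2-DMb1 and Ciita. They were chosen by name, and each was read from its probe with the highest mean over the 12 arrays. All 7 were among the 12119 genes tested, of 17759 genes with a probe of a single symbol. H2-Aa, H2-Ab1, H2-Eb1 and Cd74 lay above the median of the array on all 12 arrays and H2-DMa and H2-DMb1 on 11. Ciita met the filter, which asked for 3 arrays above the median, on exactly 3 arrays, and these fell in 3 different groups.

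The 4 groups held 3 arrays each. They were Blimp1-deficient regulatory T cells (labelled Blimp1_CKO_pTreg, here CKO Treg), Blimp1-sufficient regulatory T cells (Ctrl_pTreg, here Ctrl Treg), Blimp1-deficient effector T cells (Blimp1_CKO_Teff, here CKO Teff) and Blimp1-sufficient effector T cells (Ctrl_Teff, here Ctrl Teff). Naive CD4+CD44low T cells carrying a Foxp3-GFP reporter and an allotype mark were taken from C57BL/6 donors aged 8 to 12 weeks, mixed 1:1 between the genotypes and given to RAG1-/- hosts. After 6 to 8 weeks cells from pooled spleen, mesenteric lymph nodes and lamina propria of the large bowel were sorted by CD4, allotype and Foxp3 (present in Treg, absent in Teff) and stimulated for 4 h with PMA and ionomycin. Both genotypes thus shared the reporter, the transfer, the host type and the stimulation. RAG1-/- mice cannot form T and B cells but keep dendritic cells, macrophages, granulocytes and innate lymphoid cells. The sources used here do not say how Blimp1 was deleted, and the labels do not say that replicates came from separate animals, so p-values measure only the spread between these samples, which may be technical.

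MHC class II molecules are pairs of an alpha and a beta chain that carry peptides from the endosome to the cell surface and show them to CD4+ T cells. The invariant chain, Cd74, occupies the groove during assembly, H2-DM exchanges its remnant for peptide, and H2-O restrains H2-DM. Transcription of the set is governed by Ciita, a coactivator that binds no DNA itself and acts through RFX, CREB and NF-Y proteins on a conserved X and Y box module in the class II promoters. Dendritic cells, macrophages and B cells express the set strongly, whereas mouse T cells are generally held to make little of it. Blimp1 is known as a repressor of Ciita in plasma cells.

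The promoters are shown because class II promoters are held to carry the module through which these genes are thought to be driven together. RefSeq promoters (GRCm38.p6, 250 bases before to 50 after a gene's start) were matched for H2-Aa, H2-Eb1, H2-DMa and H2-DMb1 among the 7 genes, and for H2-Eb2, H2-DMb2, H2-Oa and H2-Ob among the other class II chains. H2-Ab1, Cd74, Ciita and H2-Ea had no entry. Capitals mark the Y box letters GATTGG and, where found upstream on the same strand, the X box letters, which are AAC, any 2 bases, ATG, any base and TG. Each line is 66 bases in the direction of the gene.
H2-Aa, chr17:34287857-34287922, minus strand: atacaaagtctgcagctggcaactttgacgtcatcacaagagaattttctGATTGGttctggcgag
H2-Eb1, chr17:34305757-34305822, plus strand: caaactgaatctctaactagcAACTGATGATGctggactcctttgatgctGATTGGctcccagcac
H2-DMb1, chr17:34153079-34153144, plus strand: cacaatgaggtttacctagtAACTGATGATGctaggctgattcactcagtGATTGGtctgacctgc
H2-DMb2, chr17:34145108-34145173, plus strand: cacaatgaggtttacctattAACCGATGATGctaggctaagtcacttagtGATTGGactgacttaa
H2-Eb2, chr17:34325524-34325589, plus strand: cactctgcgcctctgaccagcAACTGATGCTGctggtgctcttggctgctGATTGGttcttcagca
H2-Oa, chr17:34092285-34092350, plus strand: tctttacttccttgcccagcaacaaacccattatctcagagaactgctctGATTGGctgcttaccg
H2-Ob, chr17:34238797-34238862, plus strand: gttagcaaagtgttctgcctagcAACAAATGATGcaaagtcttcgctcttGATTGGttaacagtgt

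Both sets of letters were chosen after these promoters had been read and were searched on both strands, and they do not overlap each other. The X box letters were in 186 of 32851 mouse promoters (0.566%) and the Y box letters in 5292 (16.1%). The X letters followed by the Y letters within 40 bases on a single strand were in 7 promoters (0.0213%). Among these were H2-Eb1 and H2-DMb1 and, of the other chains, H2-Eb2, H2-DMb2 and H2-Ob. H2-Aa and H2-Oa held the Y letters without the X letters. The first of the 2 H2-DMa promoters held neither, and the second held the Y letters without the X letters. Genes with the same letters differed in their readout: H2-Eb1 lay above the array median on 12 arrays and H2-DMb2 on 3.

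The arrays were alike as a whole, with correlations between arrays of 0.943 to 0.988 and medians of 4.7 on the log2 scale. Foxp3, which defines regulatory T cells, read 7.29 to 8.94 on the Treg arrays and 4.42 to 4.85 on the Teff arrays, by its probe with the highest mean. The other 3 Foxp3 probes did not separate the cell types: the brightest of them read 5.14 to 6.398 on the Treg arrays and 4.81 to 7.35 on the Teff arrays, with its highest values, 6.76 and 7.35, on CKO Teff arrays 1 and 2. Prdm1, which encodes Blimp1, was higher on the arrays labelled CKO: it averaged 9.04 ± 0.52 in CKO Treg and 5.77 ± 0.50 in Ctrl Treg, and 8.26 ± 0.64 in CKO Teff and 4.92 ± 0.41 in Ctrl Teff (SD, n = 3 each). Whether this probe lies inside the deleted stretch is unknown, so it does not check the genotype, and every direction below is that of the labels. Markers of other blood cells were present: the mean of the 6 tested of 7 basophil and mast cell markers was 11.30 on CKO Teff array 1 and 10.26 on CKO Teff array 2, against 4.91 to 6.90 on the other 10 arrays. A probe near the array median is called dim here.

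The alpha and beta chains and the invariant chain, H2-Aa, H2-Ab1, H2-Eb1 and Cd74, each read higher in CKO than in the same-numbered Ctrl array in 6 of 6 pairs. Such a run was seen for 365 of the 12119 genes (3.01%). H2-DMb1 read higher in CKO in 5 of 6 pairs, and H2-DMa and Ciita in 3 of 6. Within a cell type, same-numbered arrays of the 2 genotypes deviated together across genes, so differences were tested with limma both without and with these pairs. No member passed in Treg in either fit. In Teff none passed without the pairs and Cd74 alone passed with them.

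H2-Ab1, the beta chain of I-A, gave 9.71, 10.38 and 8.96 log2 units on CKO Teff arrays 1, 2 and 3, against 6.30, 9.06 and 6.96 on Ctrl Teff arrays 1, 2 and 3. Ctrl Teff array 2 was the high one of its group and lay just above the lowest CKO array, so the groups overlapped by that array alone. In Treg H2-Ab1 gave 8.81, 9.98 and 8.68 on CKO arrays and 8.68, 8.59 and 7.35 on Ctrl arrays, without overlap but with the nearest arrays touching at 8.68. A complete separation of this kind in Treg was seen for 722 genes higher in CKO (5.96%). The difference was 2.24 ± 0.68 (SE) in Teff, with a 95% interval of 0.73 to 3.76, and 0.95 ± 0.68 in Treg, with an interval of −0.57 to 2.46. The other 2 probes of H2-Ab1 followed the main one (Pearson r of 0.978 and 0.994 over the 12 arrays) and were also higher in CKO in 6 of 6 pairs.

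H2-Aa, the alpha chain that pairs with H2-Ab1, gave 7.75, 8.63 and 7.06 on CKO Teff arrays and 4.70, 6.71 and 5.73 on Ctrl Teff arrays. Here the Teff groups did not overlap, as for 349 genes higher in CKO (2.88%), and Ctrl Teff array 1 sat at the array median. On CKO Treg arrays H2-Aa gave 6.72, 8.76 and 7.23, against 6.59, 6.73 and 5.87 on Ctrl Treg arrays. CKO Treg array 2 stood well above the rest of Treg, while CKO Treg array 1 was level with the upper Ctrl arrays. The differences were 2.10 ± 0.62 in Teff and 1.17 ± 0.62 in Treg (limma, SE).

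H2-Eb1 encodes the beta chain of I-E, whose alpha chain gene, H2-Ea, is not expressed in C57BL/6 mice. H2-Eb1 gave 9.60, 10.74 and 7.96 on CKO Teff arrays and 5.69, 8.85 and 6.63 on Ctrl Teff arrays. In Treg it gave 9.43, 10.39 and 8.65 on CKO arrays and 9.21, 9.19 and 7.31 on Ctrl arrays. The groups overlapped in both cell types, since array 3 of CKO lay below at least 1 Ctrl array each time. The differences were 2.38 ± 0.91 in Teff and 0.92 ± 0.91 in Treg. H2-Ea itself read 4.28 to 4.64 and was at or below the array median on every array.

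Cd74, the invariant chain, gave 10.79, 11.75 and 10.01 on CKO Teff arrays and 8.43, 10.37 and 8.19 on Ctrl Teff arrays. Array 2 was again the high one in both genotypes. The Treg arrays gave 11.63, 11.80 and 10.42 in CKO and 11.06, 11.05 and 9.69 in Ctrl, with array 3 low in both. The difference was 1.85 ± 0.66 in Teff and 0.68 ± 0.66 in Treg without pairs. Both further Cd74 probes were higher in CKO in 6 of 6 pairs and correlated with the main one at r of 0.995 and 0.937.

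H2-DMa and H2-DMb1 encode the 2 chains of H2-DM, the peptide exchange factor. H2-DMa gave 6.20, 6.62 and 5.08 on CKO Teff arrays and 4.664, 6.39 and 5.37 on Ctrl Teff arrays. On Treg arrays H2-DMa gave 5.62, 5.53 and 5.84 in CKO and 6.47, 6.14 and 5.78 in Ctrl. The genotypes overlapped in both cell types, and 3 of 6 pairs were higher in CKO, with differences of 0.50 ± 0.45 in Teff and −0.46 ± 0.45 in Treg. H2-DMb1 gave 6.38, 6.11 and 4.91 on CKO Teff arrays against 4.72, 5.63 and 4.54 on Ctrl Teff arrays, and 5.52, 5.89 and 5.30 on CKO Treg arrays against 5.65, 4.94 and 5.24 on Ctrl Treg arrays. It was higher in CKO in 5 of 6 pairs, with differences of 0.83 ± 0.39 in Teff and 0.29 ± 0.39 in Treg, and its groups overlapped too.

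Ciita, the coactivator, was dim. It gave 5.48, 4.27 and 4.51 on CKO Teff arrays and 4.52, 4.55 and 4.39 on Ctrl Teff arrays. The Treg arrays gave 4.71, 4.47 and 4.63 in CKO and 4.93, 4.55 and 4.41 in Ctrl. The 3 arrays above the median were CKO Teff 1, Ctrl Treg 1 and CKO Treg 1, and the first of these alone exceeded 5. Its differences were 0.26 ± 0.27 in Teff and −0.03 ± 0.27 in Treg. The largest pair difference was Teff pair 1, at 0.96.

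**Figure D1:**
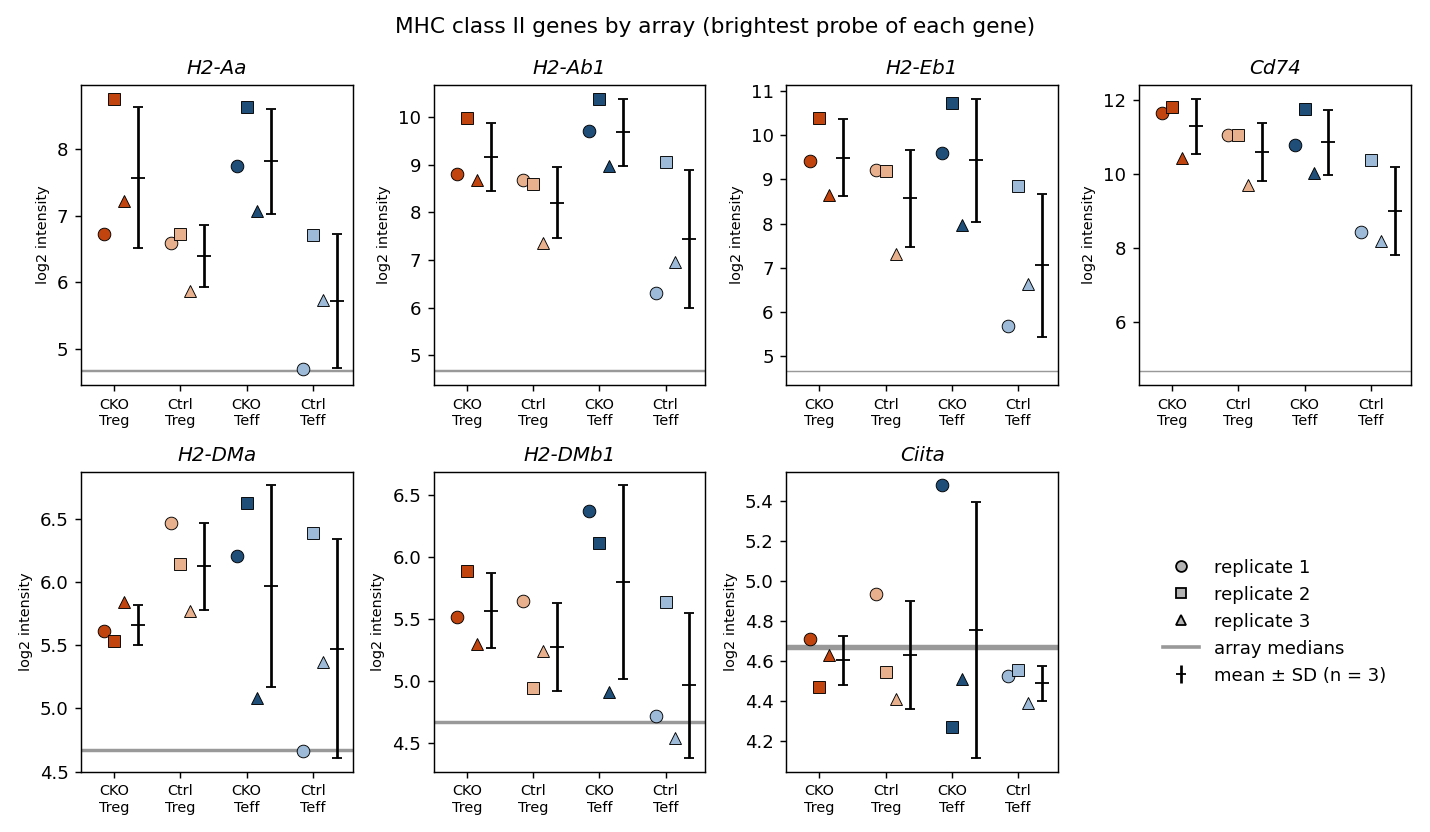
Log2 intensity (vertical axes, a separate scale for each gene, none starting at 0) of the 7 MHC class II genes on 12 arrays in 4 groups of 3, with the replicate number as the marker shape, the mean ± SD beside the points and the array medians as a grey line. H2-Aa, H2-Ab1, H2-Eb1 and Cd74 sit above the grey line and are higher in CKO, while Ciita lies around it.

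In Teff, 0 of the 7 members passed an adjusted p under 0.05 in limma without pairs, where 2 of 12119 genes did (0.0165%). At an unadjusted p under 0.05, H2-Aa, H2-Ab1, H2-Eb1 and Cd74 were higher in CKO Teff (p of 0.0064, 0.0078, 0.0252 and 0.0175, limma), a side on which 254 genes lay (2.1%), and their adjusted p was 0.983 to 1.00. With the pairs, Cd74 passed at 1.85 ± 0.17 (adjusted p = 0.00821, limma), where 5 genes passed in that direction (0.0413%). H2-Ab1, H2-Aa and H2-Eb1 then had adjusted p of 0.0689, 0.0782 and 0.0782 in limma. The pairs of Teff differed in size: pair 1 gave 3.05, 3.41, 3.91 and 2.37 for H2-Aa, H2-Ab1, H2-Eb1 and Cd74, pair 2 gave 1.92, 1.32, 1.89 and 1.38, and pair 3 gave 1.33, 2.002, 1.34 and 1.82. Leaving out any pair in turn kept Cd74 past the threshold in Teff (adjusted p of 0.0125 to 0.0404, limma). Leaving out both Teff pairs whose CKO arrays carried the basophil transcripts left a single Teff pair at 1.82 for Cd74, with an adjusted p of 0.126. In limma the median difference of the 7 members was 1.85 in Teff, against −0.02 over all genes.

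In Treg, 0 of 7 members passed without pairs, where 12 genes did (0.099%), and 0 with pairs, where 264 did (2.18%). At an unadjusted p under 0.05 without pairs 0 of 7 passed in limma too, where 646 genes did (5.33%). Cd74 came nearest with pairs, at 0.68 ± 0.17 (adjusted p = 0.0937, limma). It passed when Teff pair 1 was left out of the fit (adjusted p = 0.0401, limma), which moves only the shared estimate of the spread. Its 3 Treg pairs were close together at 0.58, 0.75 and 0.73, whereas those of H2-Aa ranged more widely, at 0.13, 2.03 and 1.36. For H2-Ab1 the Treg pairs gave 0.13, 1.38 and 1.33, and for H2-Eb1 they gave 0.22, 1.20 and 1.34, so pair 1 was small for these 3 chains. The members' median difference was 0.68 in Treg, with 5 of 7 higher, against 0.00 over all genes, of which 50.3% were higher.

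The mean of the Treg and Teff differences was added as a comparison after the data had been seen. Without pairs 0 of 7 members passed in limma, where 14 genes did (0.116%), and 4, all higher in CKO, had an unadjusted p under 0.05, where 296 genes did in that direction (2.44%). With pairs, 4 of 7 members passed in limma, all of them higher in CKO, where 275 genes passed (2.27%) and 121 of them were higher (0.998%). They were Cd74 at 1.27 ± 0.12 (adjusted p = 0.00251), H2-Aa at 1.64 ± 0.26 (adjusted p = 0.0211), H2-Ab1 at 1.60 ± 0.26 (adjusted p = 0.0222) and H2-Eb1 at 1.65 ± 0.30 (adjusted p = 0.0324). H2-DMb1, at 0.56 ± 0.19, did not pass (adjusted p = 0.233, limma), nor did H2-DMa at 0.02 ± 0.22 or Ciita at 0.12 ± 0.15.

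These calls rested on few pairs, except that of Cd74. Cd74 passed with each of the 6 pairs left out in turn (adjusted p of 0.00213 to 0.0174, limma) and with both Teff pairs 1 and 2 left out (1.25, adjusted p = 0.0116). It was then the only member to pass, as it was without Treg pair 2 or without Treg pair 3. Without Teff pair 2, Cd74 and H2-Ab1 passed, and without Treg pair 1 H2-Aa passed as well, while leaving out Teff pair 1 or Teff pair 3 kept 4 members past the threshold. The adjusted p values of the other 3 genes without Treg pair 2 were 0.0687 for H2-Aa, 0.0843 for H2-Ab1 and 0.107 for H2-Eb1.

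**Figure D2:**
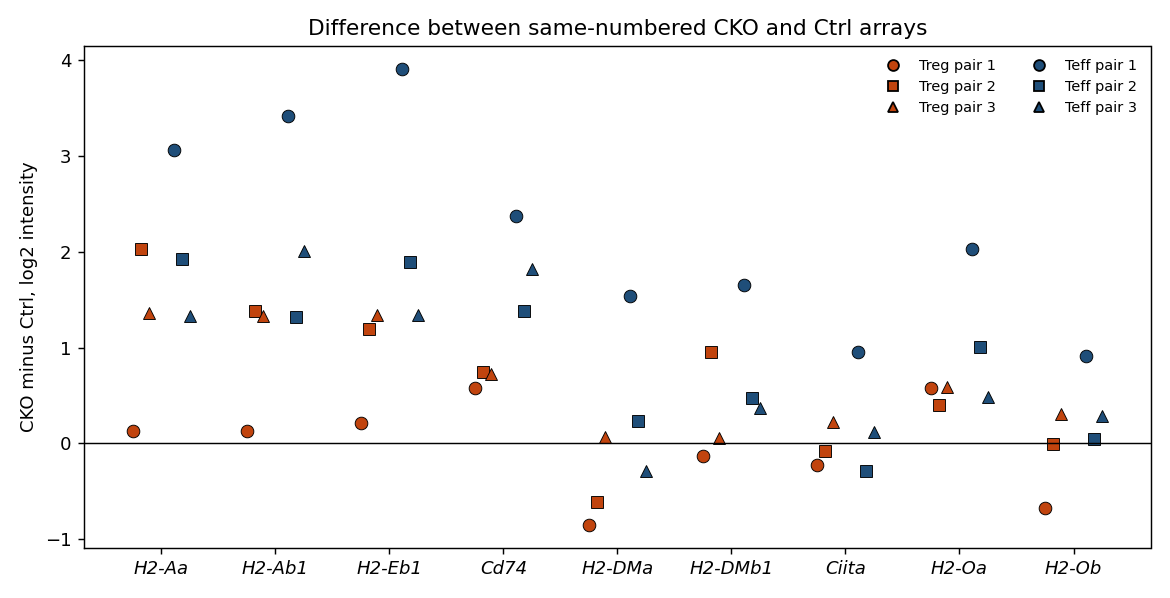
Difference in log2 intensity between the same-numbered CKO and Ctrl arrays (vertical axis, CKO minus Ctrl) for the 7 genes and the 2 H2-O chains, with Treg pairs left and Teff pairs right and pair number as the marker shape. All 6 pairs lie above 0 for H2-Aa, H2-Ab1, H2-Eb1, Cd74 and H2-Oa, and Teff pair 1 is the top point of each of these.

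Whether the genotype difference itself differed between Treg and Teff was tested as the interaction, the Treg difference minus the Teff difference. The estimate was below 0 for 7 of 7 members, from −1.46 for H2-Eb1 to −0.29 for Ciita, while 53.6% of all genes were above 0. Most members correlate across the arrays, so these are not 7 separate results. In limma 0 of 7 passed, where 2 genes did (0.0165%). At an unadjusted p under 0.05 there were 0 of 7, where 422 genes lay (3.48%). With pairs 0 of 7 passed as well, where 5 genes did (0.0413%), and Cd74 had the smallest p among the members (−1.17 ± 0.24, adjusted p = 0.154, limma). A smaller difference in Treg than in Teff was therefore not shown.

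Treg and Teff of the same genotype were compared without pairs, since their numbers did not pair the arrays. In CKO the members lay close together: Cd74 was 0.43 ± 0.66 higher in Treg and H2-Ab1 was −0.53 ± 0.68 apart, and 0 of 7 passed in limma, where 43 genes did (0.355%), with 0 at an unadjusted p under 0.05, where 1305 genes did (10.8%). In Ctrl, Cd74 averaged 10.60 ± 0.79 in Treg and 8.997 ± 1.20 in Teff (SD, n = 3 each), and H2-Eb1 averaged 8.57 ± 1.09 in Treg and 7.06 ± 1.62 in Teff. These Ctrl groups overlapped through Ctrl Teff array 2, and 0 of 7 members passed, where 123 genes did (1.01%). Cd74 alone had an unadjusted p under 0.05, as did 1260 of all genes (10.4%), at 0.0340, and an adjusted p of 0.410 (1.60 ± 0.66, limma). In Ctrl 7 of 7 members had an estimate above 0, as did 52.4% of all genes. By mean, the order of the groups for Cd74 was CKO Treg at 11.29, CKO Teff at 10.85, Ctrl Treg at 10.60 and Ctrl Teff at 8.997, and neighbours in that order differed by less than the largest SD of 1.20 except the last pair.

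The question whether the genes move together was put to the 12 arrays. H2-Aa, H2-Ab1, H2-Eb1 and Cd74 moved as a block: their 6 pairwise Pearson correlations were 0.811 to 0.956 and their Spearman correlations 0.699 to 0.937, and the adjusted permutation p was at most 0.0283 over the 42 values of the 21 pairs. Without the 2 arrays farthest from the median they were 0.678 to 0.943. Deviations from the group means, which hold no genotype difference, correlated at 0.732 to 0.965. Within the 6 Treg arrays the correlations were 0.665 to 0.965 and within the 6 Teff arrays 0.942 to 0.978. Same-numbered arrays share part of their deviation, so the 12 arrays are fewer than 12 independent samples and these p-values are too small.

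H2-DMb1 followed the block less closely, at r of 0.749 to 0.816 with its 4 genes, with an adjusted permutation p of at most 0.0322. H2-DMa correlated with them at 0.512 to 0.712 over the 12 arrays. After group means were removed the order of these genes turned, with 0.703 to 0.853 for H2-DMa and 0.613 to 0.745 for H2-DMb1. H2-DMa correlated with the 4 genes at 0.803 to 0.907 within Teff but at −0.431 to −0.131 within Treg. That difference between Treg and Teff arrays was not tested. Ciita correlated with the 4 genes at 0.107 to 0.225 (adjusted permutation p of 0.576 to 0.922). Set against all 12118 other genes, H2-Ab1 had its highest correlations with H2-Aa and H2-Eb1, at ranks 1 and 2, with Cd74 at rank 4, H2-DMb1 at rank 12, H2-DMa at rank 192 and Ciita at rank 2538. Other members gave less close ranks: for Cd74, H2-Eb1 was at rank 1, H2-Ab1 at rank 7 and H2-Aa at rank 23, behind genes outside the 7 such as Cd80 (r of 0.915). For H2-Aa, Cd74 was at rank 12.

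**Figure D3:**
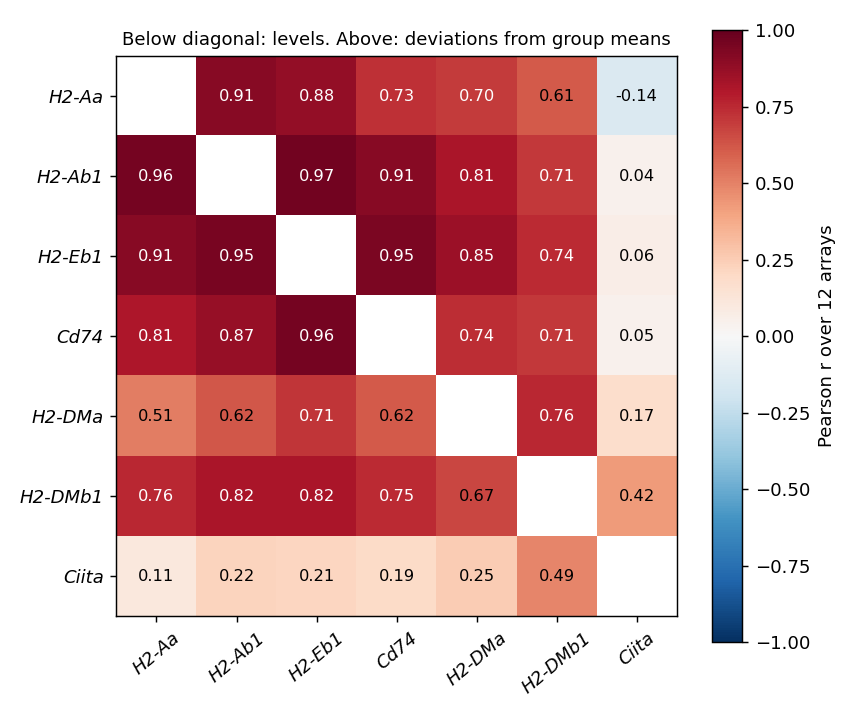
Pearson correlation over 12 arrays for each pair of the 7 genes, with levels below the diagonal and deviations from group means above it, coloured from −1 to 1. H2-Aa, H2-Ab1, H2-Eb1 and Cd74 form a block of high values, H2-DMa and H2-DMb1 are intermediate and Ciita is near 0 with most members.

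The genes outside the 7 whose pattern was most like the mean of H2-Aa, H2-Ab1, H2-Eb1 and Cd74 over the 12 arrays were Cd80 (r = 0.89), H2-Oa (0.88), Gcnt1 (0.87), Plac8 (0.85), Cd83 (0.85), Gpr3 (0.84), Nfat5 (0.84), Atp6ap2 (0.83), Rnf11 (0.83) and Mlkl (0.82). Over 12112 other genes the median correlation was −0.07 and the 99th percentile 0.67. Cd80 is a costimulatory ligand, Cd83 is a surface protein that stabilises class II on dendritic cells, and H2-Oa is the alpha chain of H2-O. After group means were removed, the correlations of Cd80, H2-Oa and Cd83 with that mean were 0.85, 0.84 and 0.74. H2-Oa gave 7.39, 7.42 and 5.50 on CKO Teff arrays and 5.36, 6.41 and 5.02 on Ctrl Teff arrays, and 6.59, 7.42 and 6.01 on CKO Treg arrays and 6.01, 7.02 and 5.42 on Ctrl Treg arrays. Of these 10 genes, Cd80, H2-Oa, Cd83, Gpr3 and Nfat5 read higher in CKO in 6 of 6 pairs, Gcnt1, Plac8 and Mlkl in 5 and Atp6ap2 and Rnf11 in 4. The 10 genes were chosen for their likeness to genes that read higher in CKO, so these counts are a description. Genes named only by a clone or locus number were left out of the choice. Gpr3 was dim, at 4.46 to 4.82, with a mean pair difference of 0.12 in Treg and 0.12 in Teff.

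The other listed genes of the pathway gave few calls: with pairs H2-Oa alone passed, over both cell types (0.85 ± 0.17, adjusted p = 0.0445, limma). Of the other class II chains, 4 of 5 were tested and 0 passed in any comparison without pairs. H2-Ob, the partner of H2-Oa, was higher in CKO in 4 of 6 pairs. Of the 7 listed RFX, NF-Y and CREB regulators, 6 were tested and 0 passed, and their median difference was −0.12 in Teff and −0.01 in Treg. Rfx5, the DNA-binding subunit of RFX, differed by −0.13 in Teff and 0.01 in Treg. It was dim, at 4.36 to 4.87 and above the array median on 4 arrays, which limits how far a difference could be read. Of the genes of class II processing, 5 of 8 listed symbols were tested and 0 passed. Among them Ctss, which trims the invariant chain, differed by 0.10 in Teff and −0.32 in Treg, and Ifi30, a lysosomal thiol reductase, by −0.19 and −0.18. H2-Oa, by its main probe, was the only gene of these lists to read higher in CKO in 6 of 6 pairs. Its other probe did not, with 5.36 on CKO Treg array 3 and 5.38 on Ctrl Treg array 3. Ifi30 and Lgmn, a lysosomal protease, read lower in CKO in 6 of 6 pairs, as did 445 of all genes (3.67%).

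Since host cells that carry class II could be in a sorted sample, marker lists of other cells were read on the same arrays. In bulk samples, a larger share of another cell type and more RNA per cell cannot be told apart. Dendritic cell markers had the closest relation to H2-Ab1, with r of 0.889 (adjusted permutation p = 0.00384). Their rho was 0.748 (adjusted permutation p = 0.0558), and the adjustment was over 24 values for 12 lists. Without the 2 farthest arrays r was 0.761, and it was 0.907 within Treg and 0.985 within Teff. The lists were chosen with earlier results of these data known, and this one holds Cd80 and Cd83, named above for their likeness to class II. Same-numbered arrays share part of their deviation, so these p-values too are too small. After group means were removed the dendritic cell list was no longer the closest. Its r was then 0.846, against 0.857 for class I presentation genes, which stood at 0.604 in levels. The list mean was 5.82 to 6.403 in CKO Treg and 5.37 to 6.09 in Ctrl Treg, and 5.83 to 6.11 in CKO Teff and 5.15 to 5.67 in Ctrl Teff. The tested genes of the list were 8 of 15, led by Cd83, Cd80, Batf3 and Cd86, which activated T cells can also express. Among the defining markers, Siglech was above the array median on 0 arrays, Xcr1 and Clec9a on 1 each, Itgax and Clec10a on 2 each and Flt3 on 3, while Zbtb46 was above it on 11, Fscn1 on 10 and Cd209a on 5. The 2 arrays for Itgax were CKO Teff 1 and 2, at 4.77 and 5.23. Ccl17, a chemokine of dendritic cells, read 6.31 and 5.68 on CKO Teff arrays 1 and 3 and at most 4.65 on the other 10. Zbtb46, a factor of classical dendritic cells, correlated with H2-Ab1 at r of 0.685 and was higher in CKO in 5 of 6 pairs. The other tested genes of the list were mixed. Batf3, Cd83 and Cd80 were higher in CKO in 6 of 6 pairs, as were 365 of all genes (3.01%), and Flt3 in 4. Fscn1 was higher in 3, Cd86 in 2 and Cd209a in 0, and Cd86 correlated with H2-Ab1 at r of 0.396. Over both cell types Cd80 and Cd83 did not pass in the fit without pairs, and each passed as higher in 5 of 29 alternatives. The part of dendritic cells in the class II values was not tested beyond these values.

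B cell markers, of which 2 of 11 were tested, were near the array median on every array, with a list mean of 4.46 to 4.81, and correlated with H2-Ab1 at 0.089. Macrophage and monocyte markers, 9 of 16 tested, averaged 5.44 to 6.10 in CKO Treg and 5.31 to 6.79 in Ctrl Treg, and 5.82 to 6.69 in CKO Teff and 5.15 to 7.09 in Ctrl Teff, and correlated with H2-Ab1 at 0.328 over the 12 arrays, with 0.654 within Teff and −0.396 within Treg. Neutrophil markers were high on many arrays and correlated with H2-Ab1 at 0.143 over the 12 arrays, with 0.597 within Teff and −0.671 within Treg. On the Treg arrays numbered 2, where H2-Ab1 was 9.98 in CKO and 8.59 in Ctrl, they were lowest, at 5.94 in CKO and 6.29 in Ctrl. The basophil and mast cell list correlated with H2-Ab1 at 0.493, with 0.756 within Teff and −0.603 within Treg. For the natural killer and innate lymphoid list the values were 0.487, 0.783 and 0.260. Within Teff these 4 lists thus read higher where H2-Ab1 did, on 6 arrays and with no test. The neutrophil and macrophage means were highest on Ctrl Teff array 2, at 9.94 and 7.09. The basophil and the natural killer list means were highest on CKO Teff arrays 1 and 2, where H2-Ab1 was also high. Their part in the Teff difference was not tested beyond leaving those arrays out. Without these 2 arrays and without pairs, H2-Ab1 differed by 1.52 and Cd74 by 1.02 in Teff, while H2-DMa, H2-DMb1 and H2-Oa turned to −0.39, −0.05 and −0.09. T cell identity genes went the other way, at r of −0.606 with H2-Ab1 (adjusted permutation p = 0.148). After group means were removed r was −0.047, while it was −0.790 within Teff and −0.366 within Treg. Over both cell types with pairs Cd3e fell by 0.48 (adjusted p = 0.0423, limma), Cd2 by 0.50 (adjusted p = 0.0267) and Lat by 0.80 (adjusted p = 0.00567) in CKO. In that fit 275 of all genes passed (2.27%). Of the other tested T cell genes, Cd3g and Zap70 were higher in CKO in 0 of 6 pairs, Cd4 in 1 and Cd3d and Cd247 in 2 each.

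**Figure D4:**
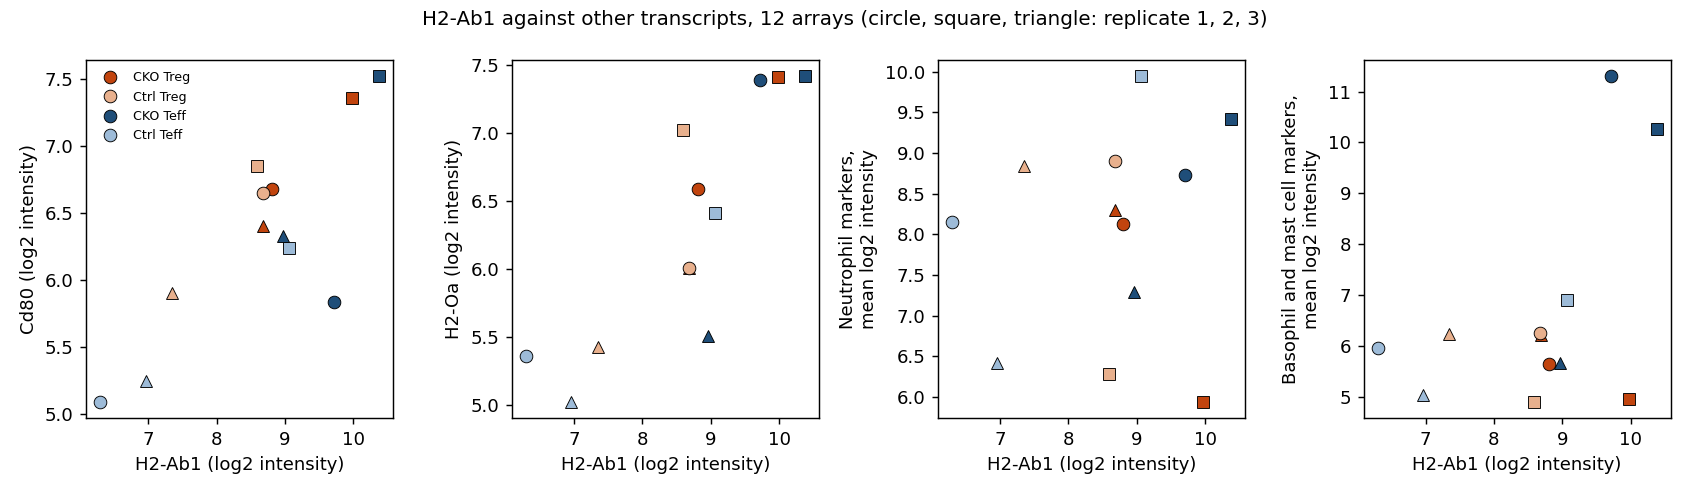
H2-Ab1 log2 intensity (horizontal axes) against Cd80, H2-Oa and the mean log2 intensity of the neutrophil and of the basophil and mast cell markers (vertical axes) on 12 arrays, coloured by group and shaped by replicate number. Cd80 and H2-Oa rise with H2-Ab1, the neutrophil mean shows no such order over the 12 arrays, and the basophil mean is set apart on CKO Teff arrays 1 and 2.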

How the data were processed

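Total RNA of the 12 samples was purified with Qiagen RNeasy columns, labelled as biotin cRNA with the Ambion MessageAmp kit and hybridised to Illumina mouse arrays, per the labels. Each probe's deposited value is a log2 intensity. GenomeStudio and limma 3.30.11 appear in the submitters' processing notes. The sources used here state neither the background correction nor the normalization the authors applied. Precision is limited by there being 12 arrays.

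Of 31641 probes, 28197 had 1 gene symbol in the platform annotation, 5 several and 3439 none. Probes above the array median on at least 3 of 12 arrays were kept, and the brightest stood for each gene. All 12 arrays entered 1 fit with 4 group means (limma 3.58.1, R 4.3.3, lmFit and eBayes), two-sided, with Benjamini-Hochberg adjustment over 12119 genes and a threshold of 0.05. Residuals of same-numbered CKO and Ctrl arrays correlated at 0.519 to 0.589 in Treg and 0.348 to 0.737 in Teff, so these arrays were taken as pairs, entered as fixed terms in a second fit. For Treg and Teff the correlations were −0.266 to 0.325. Correlations were tested with 1e+05 permutations (Python 3.11.15). The fit without pairs was run on simulated data with independent arrays, for CKO against Ctrl in Teff. That run does not test the fit with pairs, from which the member calls came.

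The 7 genes and the 13 lists were chosen with earlier results of these data known. Other genes are named when among the 4 brightest tested genes of a list. Also named are the 10 genes most correlated with the mean of H2-Aa, H2-Ab1, H2-Eb1 and Cd74, clone and locus names left out. Further list genes and H2-Ob, Rfx5, Lat and the defining dendritic cell markers were named after their values were seen. Alternatives covered scaling, filters, probes, eBayes settings, pairs, arrays in the fit and each array left out. Added after seeing the data were the mean over both cell types, leaving out CKO Teff arrays 1 and 2, the Treg arrays numbered 2, each pair, or Teff pairs 1 and 2.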

Additional observations from a re-analysis of the deposited data

Results flagged for a closer look

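Hdc, the histamine-forming enzyme of basophils and mast cells, was lower in CKO in 3 of 3 Treg pairs and higher in 3 of 3 Teff pairs, and the Treg difference minus the Teff difference was −3.14 ± 2.18 (SE, adjusted p = 1.00, limma), so the difference did not pass its test. Klra7, a receptor of natural killer cells, showed the same split, lower in CKO in 3 of 3 Treg pairs and higher in 3 of 3 Teff pairs, at −3.75 ± 1.34 (adjusted p = 1.00, limma). Both are markers of other cells and were highest on CKO Teff arrays 1 and 2, where H2-Ab1 was also high. They were flagged for this split of the pairs, and how many of all genes split in this way was not counted.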

How the results depend on the processing

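The differences of H2-Aa, H2-Ab1, H2-Eb1 and Cd74 between CKO and Ctrl stayed above 0 in Treg, in Teff and over both under every alternative run. No member passed under quantile normalization, median centring, any filter, probe rule or eBayes setting, or with any single array left out of the unpaired fit. With the replicate block within cell type, 1 member passed in Teff, 0 in Treg and 4 over both, and the genes past the threshold became 12 in Teff, 264 in Treg, 275 over both and 5 for the interaction. A block within genotype gave 20 genes for Treg against Teff in CKO and no member called. The median correlation among the 4 chains was 0.890 to 0.944 with 1 array left out.

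Counts of genes moved elsewhere too, where the members called stayed at 0. The 75th percentile filter gave 1 gene in Teff, 82 for Treg against Teff in CKO and 0 for the interaction. Trend and robust settings gave 86 in CKO and 4 for the interaction. Fits of only the groups compared gave 0 in Teff, 25 in Treg, 4 for Treg against Teff in CKO and 29 in Ctrl.

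With CKO Teff arrays 1 and 2 left out, the counts were 0 in Teff, 19 in Treg, 0 for Treg against Teff in CKO, 0 for the interaction and 4 over both. In Teff the difference turned to −0.39 for H2-DMa, −0.053 for H2-DMb1 and −0.093 for H2-Oa, and over both to −0.43 for H2-DMa and −0.00288 for Ciita. Treg against Teff in CKO turned to 0.51 for H2-Aa, 0.19 for H2-Ab1, 0.58 for H2-DMa, 0.66 for H2-DMb1 and 0.092 for Ciita, and the interaction to 0.011 for H2-Eb1 and 0.34 for H2-DMb1. With the Treg arrays numbered 2 left out, counts were 0 in Teff, 4 in Treg, 15 and 37 for Treg against Teff in CKO and Ctrl, 0 for the interaction and 4 over both. H2-DMb1 turned to −0.040 in Treg and H2-Eb1 to −0.39 between Treg and Teff in CKO. With pairs and Teff pairs 1 and 2 left out, counts were 0 genes in Teff, 348 in Treg with 1 member, and 59 over both with 1 member, and H2-DMa turned to −0.29 in Teff and −0.38 over both. The causes were not tested.

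Leaving out 1 array, or 1 pair under the block, gave 0 to 123 genes and 0 to 3 members in Teff, 5 to 318 genes and 0 to 1 member in Treg, and 6 to 231 genes and 0 to 4 members over both. Leaving out 1 array gave 16 to 259 genes for Treg against Teff in CKO, 44 to 163 in Ctrl and 0 to 22 for the interaction. Differences near 0 changed sign under some of these. In Teff they spanned −0.027 to 0.95 for H2-DMa and −0.099 to 0.54 for Ciita. In Treg they spanned −0.040 to 0.50 for H2-DMb1, −0.15 to 0.12 for Ciita and −0.20 to 1.20 for Cd83. Over both they spanned −0.25 to 0.25 for H2-DMa and −0.063 to 0.26 for Ciita. Between Treg and Teff in CKO they spanned −0.84 to 0.18 for H2-Aa, −0.68 to 0.71 for H2-Eb1, −0.75 to 0.020 for H2-DMa, −0.67 to 0.058 for H2-DMb1 and −0.39 to 0.21 for Ciita. For Ciita they spanned −0.011 to 0.25 in Ctrl and −0.53 to 0.072 for the interaction. Most Ciita values lay near or below the array median, which limits how far a fall could be read.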

Other observations

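Class I presentation genes were read on the same arrays. Of 10 genes listed, 10 were tested and 0 passed between CKO and Ctrl in limma, with a median difference of −0.16 in Treg and 0.18 in Teff and no gene higher in CKO in 6 of 6 pairs. B2m, the common light chain of class I, differed by −0.18 in Treg and 0.00 in Teff, and H2-K1, a class I heavy chain, by −0.14 and −0.11. Nlrc5, the class I counterpart of Ciita, differed by 0.40 ± 0.55 in Treg and 0.18 ± 0.55 in Teff. Psmb9, an immunoproteasome subunit, was higher in Treg than in Teff of Ctrl (1.29 ± 0.22, adjusted p = 0.0221, limma).

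Interferon gamma is a known inducer of Ciita. Of 10 genes of its signalling, 9 were tested and 0 passed between CKO and Ctrl without pairs, with a median difference of −0.53 in Treg and 0.38 in Teff. Gbp3, an interferon-induced GTPase, gave 10.09, 9.60 and 10.02 on CKO Treg arrays and 11.69, 10.64 and 10.70 on Ctrl Treg arrays, and with pairs it was lower in CKO Treg (−1.11 ± 0.19, adjusted p = 0.0273, limma). It was the only one of the 9 to pass in Treg with pairs, where 264 of all genes did (2.18%), and was named after its values were seen. Socs1, a feedback inhibitor of cytokine signalling, read higher in CKO in 3 of 3 Treg pairs, by 0.49, 0.47 and 0.039. The other tested genes of the list did not: Jak2 was higher in 1 of 3 Treg pairs. Ifngr1, Ifngr2, Jak1, Irf1, Irf8, Gbp2 and Gbp3 were higher in 0 of 3. How many of all genes gave such runs in Treg was not counted. The mean of the list correlated with H2-Ab1 at 0.469 over the 12 arrays and at 0.676 after group means were removed (adjusted permutation p = 0.251 for the first). The correlation was 0.714 within Teff but −0.506 within Treg, and 0.175 without the 2 farthest arrays. The difference between Treg and Teff arrays was not tested.

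Batf3, a transcription factor of both dendritic cells and activated T cells, gave 7.73, 7.89 and 8.54 on CKO Treg arrays and 4.67, 6.31 and 4.87 on Ctrl Treg arrays. With pairs it was higher in CKO Treg (2.77 ± 0.34, adjusted p = 0.00779, limma). Its correlation with the mean of the 4 class II chains over the 12 arrays was 0.45, and −0.11 after group means were removed.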
